A study of Mus musculus with 10 samples.

Results

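Collagens and the enzymes and helpers that process them were followed in the lungs of mice with increased pulmonary blood flow (IncPBF). The members were chosen by name from the deposited table of FPKM, which counts sequenced fragments per kilobase of gene length relative to the library size. They were 49 of its 54532 genes, 37 collagen chains and 12 processing genes, and each name matched 1 row. Whole lungs of wild-type C57/BL6 pups, male or female according to the methods, were collected at P14. Pups of the IncPBF group (n = 5) had a fistula punctured between the abdominal aorta and the inferior vena cava at P7. The sham group (n = 5) had the same laparotomy at P7 without the puncture. The fistula lies in the abdomen, away from the lung, and each library holds the RNA of all cells of a lung. The comparison asks how collagen genes of the alveolar stage differ when flow through the lung is raised between P7 and P14.

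Collagens are chains wound in trimers along stretches in which glycine recurs in a Gly-X-Y repeat. Fibril-forming collagens give tissue its tensile strength, fibril-associated collagens coat those fibrils, and type IV collagens build the network of the basement membrane between alveolar epithelium and capillaries. Inside the endoplasmic reticulum, prolyl and lysyl hydroxylases modify the chains and the chaperone Serpinh1 holds the helix, and after secretion the proteinase Bmp1 trims the C-terminal propeptide, helped by Pcolce and Pcolce2.

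The recovered fragments on genes numbered 16103423 to 20318525 per lung, so that the lowest members rest on few fragments. These fragment numbers bear on counting error only. The lung markers Sftpc, Sftpb, Ager, Hopx, Pecam1 and Cdh5 were abundant in every library, with a summed FPKM of 11457 to 16809. Of these 6, 5 were called lower in the IncPBF group by the test below, and Sftpc, most of the sum, was not called. Sftpb was 704 to 870 FPKM in IncPBF lungs and 1188 to 1302 FPKM in sham lungs. The groups also differed in sex-linked RNA. Xist was 52.4 to 66.5 FPKM in IncPBF lungs 2 to 5 and at most 0.077 FPKM in IncPBF lung 1 and the sham lungs, and Ddx3y from the Y chromosome showed the opposite pattern. Surgery and sex-linked RNA are thus nearly confounded, since only IncPBF lung 1 shares the pattern of the sham lungs. In the calls between the groups, the parts of surgery and of this difference cannot be told apart. The members are therefore also given with Xist as a covariate and for IncPBF lung 1. With this covariate none of the 5 lower lung markers stayed called. Nothing in the labels says whether lungs came from separate litters, so p values measure the spread between these lungs.

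Of the 49 members, 43 had a mean of at least 0.5 FPKM and were tested by limma on log2(FPKM + 0.1), and 6 lay below. At a Benjamini-Hochberg adjusted p under 0.05 over all 15388 genes tested, 16 members rose in the IncPBF group, 15 fell and 12 were not called. Over all genes, 16.1% of genes tested rose and 16.2% fell. The median log2 fold change of the 43 members was -0.15, against 0.01 for all genes tested. The 31 called members changed by a median of 0.58 on the log2 scale, and all called genes by 0.41. Called at a change of at least 2-fold, in either direction, were 7 members, against 3.06% of all genes tested. Of these, 6 rose (Col25a1, Col9a2, Col24a1, P4ha3, Col12a1 and Col15a1) and 1 fell (Col17a1). Col25a1, Col9a2 and Col24a1 reached the mean of 0.5 FPKM only through the IncPBF lungs, with sham means of 0.211, 0.152 and 0.430 FPKM. Col17a1 reached it only through the sham lungs, with an IncPBF mean of 0.331 FPKM. How many of all called genes passed in this way was not counted. All 5 IncPBF lungs lay above all 5 sham lungs in 14 of the 43 members (12% of all genes tested) and below them in 10 (11.2%). After scaling each lung to an equal total, 17 members rose and 13 fell, and the shares over all genes were 23.1% and 11.6%. With limma-voom on recovered fragments, 17 members rose and 14 fell, and the shares were 23.7% and 12.2%.

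**Figure D1:**
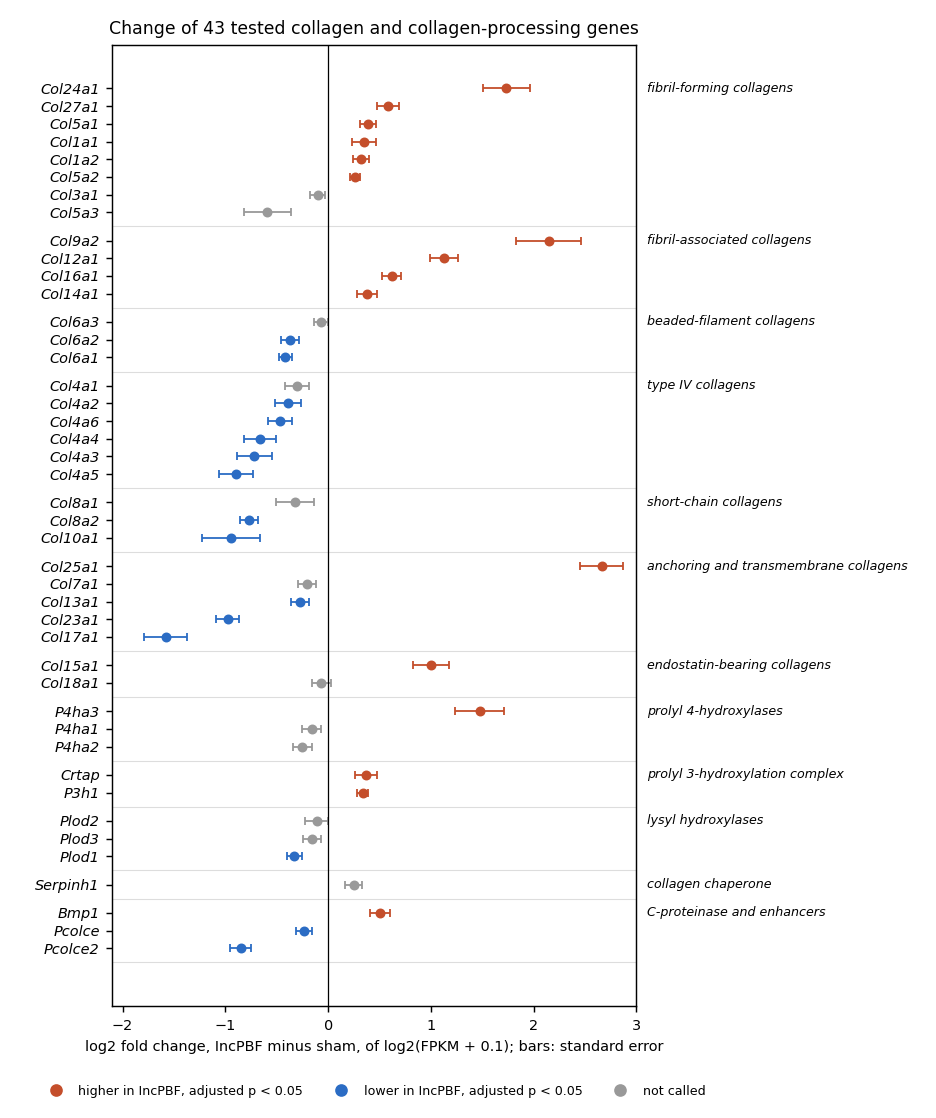
Log2 fold change of the 43 tested members, IncPBF minus sham, on log2(FPKM + 0.1), grouped by role, with bars for the standard error (n = 5 lungs per group). Fibril-associated chains lie to the right of 0, from 0.38 to 2.14, and type IV chains to its left, from -0.90 to -0.30.

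Of the 8 fibril-forming chains tested, 6 rose, none fell and 2 were not called. With Xist as a covariate, 1 of the 6, Col24a1, stayed past the threshold, and the log2 fold changes of Col1a1, Col1a2, Col5a1 and Col27a1 were 0.11, 0.21, 0.25 and 0.33. Type I collagen, the main fibril of the interstitium, had 2 chains in the list. Col1a1 was 245, 328, 271, 346 and 263 FPKM in IncPBF lungs 1 to 5 and 204, 261, 258, 201 and 215 FPKM in sham lungs. The groups overlapped, since IncPBF lung 1 lay under the highest sham lungs. The log2 fold change of Col1a1 was 0.35 (SE 0.12, adjusted p = 0.0392), and leaving out any one of IncPBF lungs 2 to 4 or sham lungs 1, 4 or 5 ended the call, with an adjusted p of up to 0.0931, as did testing without a filter (0.0948) and a fit without a trend in the variance (0.0502). Col1a2 rose from 154 ± 12.7 to 192 ± 17.7 FPKM (mean ± SD of 5 lungs each), with a log2 fold change of 0.32 (SE 0.08, adjusted p = 0.010), and its groups did not overlap.

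Col3a1, the type III chain of vessels and elastic interstitium, did not follow type I. It was 341, 398, 317, 349 and 347 FPKM in IncPBF lungs and 355, 410.5, 367, 349.5 and 398 FPKM in sham lungs. In 4 of the 5 IncPBF lungs it was below every sham lung, and IncPBF lung 2 lay within the sham range. The log2 fold change was -0.10 (SE 0.08, adjusted p = 0.332). The ratio of Col3a1 to Col1a1 was 1.22 ± 0.147 with IncPBF and 1.67 ± 0.168 with sham surgery, with no overlap of the lungs.

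Type V chains sit in the core of type I fibrils and set their diameter. Col5a1 rose by 0.39 on the log2 scale (adjusted p = 0.00441), from 48.5 ± 5.77 to 63.2 ± 3.68 FPKM, and Col5a2 by 0.26 (adjusted p = 0.00209), from 41.0 ± 1.60 to 49.1 ± 2.09 FPKM. Both had every IncPBF lung above every sham lung. The minor chain Col5a3 was 0.302 to 0.706 FPKM in IncPBF lungs and 0.671 to 0.995 FPKM in sham lungs, a log2 fold change of -0.59 (SE 0.23) that was not called (adjusted p = 0.0661). Without IncPBF lung 4 its adjusted p was 0.0499. A fit without a trend in the variance and limma-voom on recovered fragments also called it lower, at the lowest with an adjusted p of 0.0289.

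The largest rise among fibril-forming chains was that of Col24a1, on the plus strand of chromosome 3 between 145292472 and 145552011 (GRCm38). Col24a1 was 1.72, 1.65, 1.58, 1.34 and 1.69 FPKM in IncPBF lungs and 0.197, 0.376, 0.641, 0.432 and 0.505 FPKM in sham lungs. The lowest IncPBF lung had more than the highest sham lung, and the mean was 3.71-fold higher. Its log2 fold change was 1.73 (SE 0.23, adjusted p = 0.000273).

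Col27a1, the closest relative of Col24a1 among the members, was 5.31, 5.97, 7.16, 7.75 and 5.54 FPKM in IncPBF lungs and 3.75, 3.95, 4.48, 4.59 and 4.11 FPKM in sham lungs. It rose by 0.58 on the log2 scale (SE 0.11, adjusted p = 0.00226) with no overlap. The chains of this pair are built differently from the others. In translations of their GENCODE M21 transcripts, the longest uninterrupted run of Gly-X-Y triplets was 216 in Col24a1 and 217 in Col27a1, and 337 to 344 in the other 9 fibril-forming members.

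All 4 fibril-associated chains tested rose, and none of the 4 stayed past the threshold with Xist as a covariate, where Col12a1 came nearest (adjusted p = 0.0550). Col12a1, which coats type I fibrils and lies on chromosome 9 from 79598991 to 79718831 on the minus strand, was 8.18, 11.2, 13.3, 10.5 and 12.7 FPKM in IncPBF lungs. In the sham lungs it was 4.99, 5.10, 5.19, 3.98 and 5.94 FPKM. Every IncPBF lung was above every sham lung, the mean was 2.22-fold higher, and the log2 fold change was 1.12 (SE 0.14, adjusted p = 0.000159).

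Col16a1, a further chain of this class, was 19.4, 21.3, 23.6, 20.4 and 20.2 FPKM in IncPBF lungs and 11.2, 13.7, 16.1, 12.5 and 15.0 FPKM in sham lungs. It rose by 0.62 (SE 0.10, adjusted p = 0.000765), again without overlap. Col14a1, found beside Col12a1 on type I fibrils, rose by 0.38 (SE 0.10, adjusted p = 0.0139), from 10.6 ± 1.25 to 13.8 ± 1.48 FPKM. Its groups overlapped, because IncPBF lung 3 had 11.2 FPKM and the highest sham lung 12.1 FPKM.

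Col9a2, a chain of the type IX collagen that coats cartilage fibrils, rose by 2.14 (SE 0.31, adjusted p = 0.000548). It was 0.655 to 1.47 FPKM in IncPBF lungs and 0.0557 to 0.270 FPKM in sham lungs, on 3 to 84 fragments per lung. The other type IX chains, Col9a1 and Col9a3, were below the filter, at most 0.0632 and 0.309 FPKM in any lung. Cartilage markers were mixed. Acan, Comp and Cnmd were at most 0.174 FPKM, Matn1 had at most 1 fragment and Ucma none in any lung, and 3 of 9 were tested. Sox9 was called higher, but not with Xist as a covariate (adjusted p = 0.478). Chad, at up to 7.28 FPKM, and Hapln1, at up to 1.92 FPKM, were not called. Matn3, under the filter, was 0.108 to 0.272 FPKM in IncPBF lungs and 0.0352 to 0.0924 FPKM in sham lungs, without overlap. The summed FPKM of these markers was 5.89 to 10.05 in IncPBF lungs and 2.88 to 7.99 in sham lungs, and its part in the rise of Col9a2 was not tested.

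**Figure D2:**
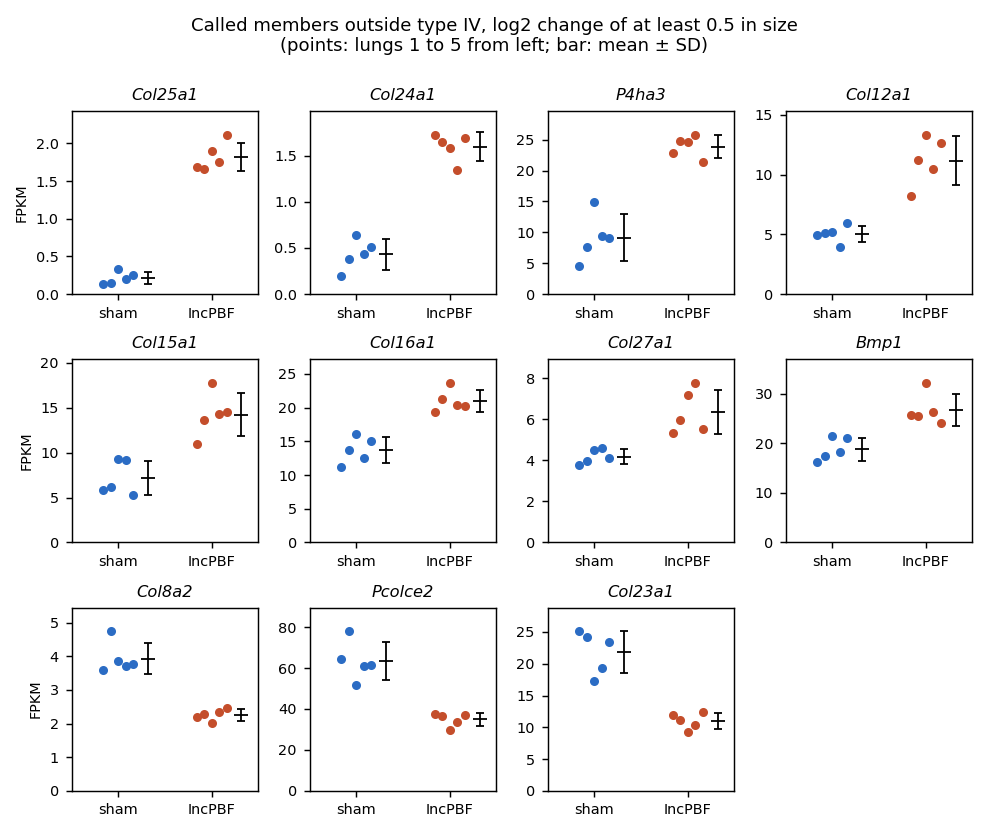
FPKM in each lung of the 11 members outside type IV that were called with a log2 fold change of at least 0.5 in size and a mean of at least 1 FPKM, with the mean and SD beside the 5 points of each group. Col25a1 to Bmp1 are higher and Col8a2, Pcolce2 and Col23a1 lower in every IncPBF lung than in every sham lung.

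Type IV collagens moved the other way, with 5 of 6 chains lower in the IncPBF group and Col4a1 not called. None of the 5 stayed past the threshold with Xist as a covariate (adjusted p 0.163 to 0.349). Col4a1 and Col4a2 form the network of nearly all basement membranes, and were among the most abundant members. Col4a1 was 424, 436, 498, 393 and 481 FPKM in IncPBF lungs and 574, 590.2, 443, 485 and 686 FPKM in sham lungs. The ranges overlapped through sham lungs 3 and 4, with a log2 fold change of -0.30 (SE 0.12, adjusted p = 0.0733), and without sham lung 3 the adjusted p was 0.0227.

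Col4a2 was 305, 311, 354, 280.2 and 334 FPKM in IncPBF lungs and 431, 454, 329, 353 and 529 FPKM in sham lungs. It fell by 0.39 on the log2 scale (SE 0.13, adjusted p = 0.0357), and the groups overlapped. The call ended when any one of IncPBF lungs 1, 2, 4 or 5 or sham lungs 1, 2 or 5 was left out, with an adjusted p of up to 0.0863, and also with quantile normalization (0.0608) and without a filter (0.0949). The ratio of Col4a1 to Col4a2 was 1.39, 1.40, 1.41, 1.40 and 1.44 in IncPBF lungs and 1.33, 1.30, 1.35, 1.37 and 1.30 in sham lungs. The lungs were therefore parted by this ratio, although neither chain parted them alone.

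Col4a3, Col4a4 and Col4a5 form a second network, known from the kidney glomerulus and the alveolar wall. Col4a3 was 28.9, 33.5, 24.4, 26.2 and 36.6 FPKM in IncPBF lungs and 61.7, 53.0, 35.6, 39.1 and 60.3 FPKM in sham lungs. It fell by 0.72 (SE 0.17, adjusted p = 0.00805), and the ranges touched, since IncPBF lung 5 exceeded sham lung 3.

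Col4a4 was 28.8, 30.2, 23.6, 25.9 and 34.0 FPKM in IncPBF lungs and 55.4, 46.2, 34.2, 36.2 and 57.4 FPKM in sham lungs. It fell by 0.66 (SE 0.15, adjusted p = 0.00757) without overlap. Col4a5, on the X chromosome, was 26.9, 29.2, 21.4, 22.9 and 30.5 FPKM in IncPBF lungs and 60.8, 56.3, 34.2, 39.4 and 57.4 FPKM in sham lungs. Its fall of 0.90 (SE 0.17, adjusted p = 0.00228) was the largest of the type IV chains, and its sham mean was 1.90-fold the IncPBF mean. Sham lungs 3 and 4 were the lowest sham lungs for all of Col4a1 to Col4a6.

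Col4a6, which pairs with Col4a5 in yet another network, was 2.27, 2.84, 2.17, 2.06 and 2.88 FPKM in IncPBF lungs and 3.66, 3.87, 3.05, 2.95 and 3.46 FPKM in sham lungs. It fell by 0.47 (SE 0.12, adjusted p = 0.0107), with no overlap. The summed FPKM of the 6 chains was 750.6 to 923 in IncPBF lungs and 879 to 1394 in sham lungs. Col4a5 relative to Col4a1 was 0.0590 ± 0.00951 with IncPBF and 0.0887 ± 0.0118 with sham surgery, with no overlap. Col4a3 relative to Col4a4 was 1.05 ± 0.0451 and 1.09 ± 0.0443, and overlapped.

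**Figure D3:**
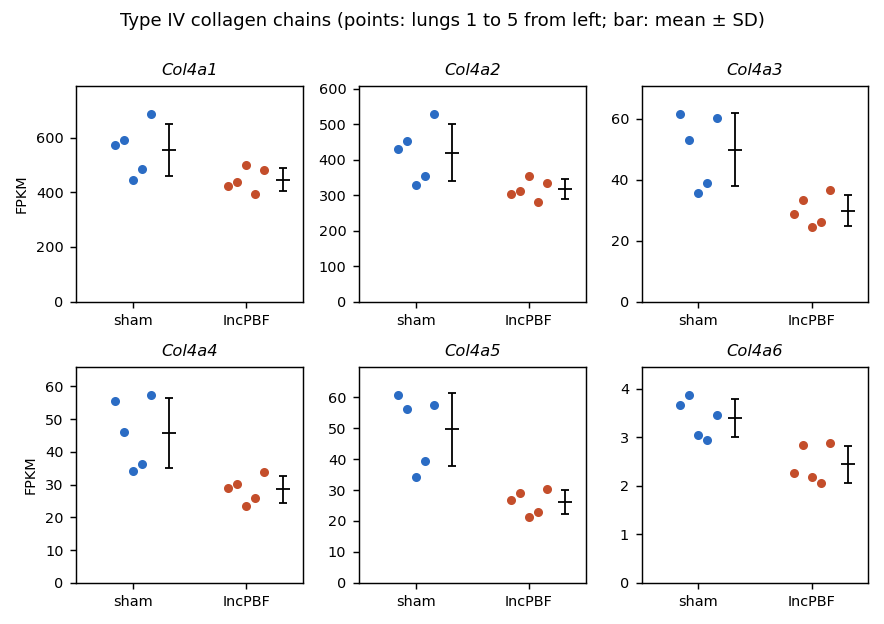
FPKM of the 6 type IV chains in each lung, with the mean and SD beside the 5 points of each group. Col4a4, Col4a5 and Col4a6 are lower in every IncPBF lung than in every sham lung, and Col4a1, Col4a2 and Col4a3 overlap.

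The type IV genes lie in head-to-head pairs, each pair read in opposite directions from neighbouring starts. In GENCODE M21 the outermost starts of Col4a1 and Col4a2 on chromosome 8 overlap by 22 bases. Those of Col4a3 and Col4a4 are 71 bases apart on chromosome 1, and those of Col4a5 and Col4a6 are 1308 bases apart on the X chromosome. The interval between Col4a3 and Col4a4 is shown because both chains beside it fell together. It is given on the strand of Col4a4, from the RefSeq promoter sequences on GRCm38.p6 at chr1:82586850-82586920, and was searched on both strands for the TATA box (spelled TATAAA), the CCAAT box (spelled by its name) and the GC box (spelled GGGCGG), none of which is in these letters.
Col4a3-Col4a4 interval: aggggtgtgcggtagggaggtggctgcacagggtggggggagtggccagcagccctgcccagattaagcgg

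Of the markers of the cells beside this basement membrane, those of AT1 cells were lower as well and those of endothelium were mixed. All 5 markers of AT1 cells (Ager, Hopx, Pdpn, Rtkn2 and Aqp5) fell, with a summed FPKM of 864 to 904 in IncPBF lungs and 1094 to 1428 in sham lungs. Of 4 endothelial markers, Pecam1 and Cdh5 fell and Kdr and Cldn5 were not called, with log2 fold changes of -0.17 and 0.09. The endothelial sums, 822 to 879 and 849.9 to 1109, overlapped. With Xist as a covariate none of these 7 calls held, at an adjusted p of 0.122 for Ager, 0.387 for Aqp5 and 0.177 for Pecam1. The part of these markers in the fall of type IV collagens was not tested, and in whole lungs fewer cells of a type and less RNA per cell cannot be told apart.

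Type VI collagen forms beaded filaments around cells and basement membranes from chains made by Col6a1, Col6a2 and Col6a3. Col6a1 fell from 195 ± 13.4 to 146 ± 7.70 FPKM (log2 fold change -0.42, SE 0.06, adjusted p = 0.000662) and Col6a2 from 103 ± 13.0 to 78.8 ± 3.96 FPKM (-0.37, SE 0.08, adjusted p = 0.00620), both without overlap. Col6a3 was 49.8 to 56.2 FPKM in IncPBF lungs and 52.8 to 65.9 FPKM in sham lungs, a log2 fold change of -0.07 (adjusted p = 0.456). Its sign turned to 0.01 after an equal total per lung and with limma-voom on the recovered fragments. Col6a3 relative to Col6a1 was 0.373 ± 0.0147 with IncPBF and 0.294 ± 0.0118 with sham surgery, with no overlap, while the ratio of Col6a1 to Col6a2 overlapped.

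**Figure D4:**
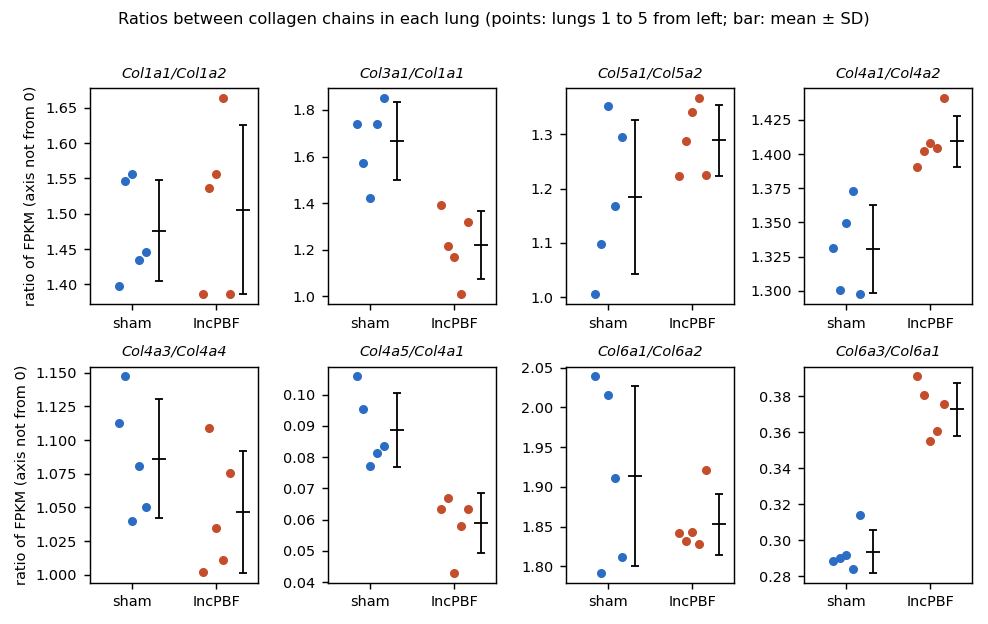
Ratio of FPKM between 8 pairs of chains in each lung, with the mean and SD beside the 5 points of each group and axes that do not start at 0. Col3a1/Col1a1 and Col4a5/Col4a1 are lower and Col4a1/Col4a2 and Col6a3/Col6a1 higher in every IncPBF lung than in every sham lung, and the other 4 ratios overlap.

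Among the short-chain collagens, Col8a2, a chain of the hexagonal lattice under endothelia, was 2.19, 2.27, 2.00, 2.35 and 2.47 FPKM in IncPBF lungs and 3.59, 4.74, 3.87, 3.71 and 3.76 FPKM in sham lungs. The groups were apart, and it fell by 0.77 (SE 0.09, adjusted p = 0.000125). Its partner Col8a1 was 0.477 to 0.594 FPKM against 0.556 to 0.929 FPKM and was not called (log2 fold change -0.32, adjusted p = 0.199). Col10a1, the collagen of hypertrophic cartilage, fell by 0.94 (SE 0.28, adjusted p = 0.0255) on only 13 to 75 fragments per lung. Its groups overlapped, and the call ended without sham lung 1 or sham lung 5, at an adjusted p of up to 0.0653, and without a filter (0.0517).

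Transmembrane and anchoring collagens held the largest rise and the largest fall of the list. Col25a1, a transmembrane collagen whose shed part occurs in amyloid plaques and which motor axons need to innervate muscle, lies on chromosome 3 from 130131501 to 130599877 on the plus strand. It was 1.68, 1.67, 1.90, 1.75 and 2.11 FPKM in IncPBF lungs and 0.129, 0.143, 0.328, 0.206 and 0.248 FPKM in sham lungs. No lung came near the other group, with 30 to 568 fragments per lung, and the mean was 8.63-fold higher. The log2 fold change was 2.66 (SE 0.21, adjusted p = 1.38e-05).

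Col17a1, the hemidesmosomal collagen that ties epithelial cells to the basement membrane, fell by 1.58 (SE 0.21, adjusted p = 0.000316). It was 0.278 to 0.393 FPKM in IncPBF lungs and 0.802 to 1.59 FPKM in sham lungs, 3.69-fold higher in the latter. Markers of basal cells, which use hemidesmosomes, were low, and none of the 4 was tested. Krt5 had at most 2 fragments and Krt14 at most 4 in any lung. Trp63, on at most 24 fragments, was 0.00645 to 0.0691 FPKM in IncPBF lungs and 0.0822 to 0.159 FPKM in sham lungs, so that all IncPBF lungs were below all sham lungs. Ngfr was 0.202 to 0.447 FPKM and 0.0647 to 0.258 FPKM, and the summed FPKM of the 4 was 0.311 to 0.598 and 0.287 to 0.413. The part of basal cells in the fall of Col17a1 was not tested.

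Col23a1, a transmembrane collagen on chromosome 11 from 51289920 to 51583918 on the plus strand, was 11.9, 11.1, 9.25, 10.4 and 12.5 FPKM in IncPBF lungs. In the sham lungs it was 25.1, 24.2, 17.4, 19.3 and 23.4 FPKM. Every sham lung was above every IncPBF lung, and the log2 fold change was -0.98 (SE 0.11, adjusted p = 0.000125).

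Col13a1, a transmembrane collagen of cell junctions, fell by 0.27 (SE 0.09, adjusted p = 0.0364), from 21.8 ± 2.61 to 17.9 ± 1.58 FPKM. The groups overlapped, and leaving out any one of IncPBF lungs 1, 2 or 4 or sham lungs 2, 4 or 5 ended the call, with an adjusted p of up to 0.0838, as did an equal total per lung (0.0700), limma-voom (0.0580), a fit without a trend (0.0522) and testing without a filter (0.0691). Col7a1, which makes the anchoring fibrils of the skin, was 1.42 to 1.84 FPKM in IncPBF lungs and 1.84 to 2.02 FPKM in sham lungs and was not called (log2 fold change -0.21, adjusted p = 0.104).

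Sequence before the start is shown for the 3 largest called changes in each direction for which 150 bases could be read free of annotated exons, so that the letters stand beside the values. They are taken from the RefSeq promoter table on GRCm38.p6, which held 40 of the 49 members, are written 5′ to 3′ on the strand of the gene, and carry capitals at matches to the same boxes on either strand. Col25a1 is at chr3:130180695-130180844, before the RefSeq start and within the longer GENCODE gene, Col24a1 at chr3:145292322-145292471 and P4ha3 at chr7:100285370-100285519. Col17a1 is at chr19:47692095-47692244 on the minus strand, Col23a1 at chr11:51289770-51289919 and Col10a1 at chr10:34389831-34389980.
Col25a1: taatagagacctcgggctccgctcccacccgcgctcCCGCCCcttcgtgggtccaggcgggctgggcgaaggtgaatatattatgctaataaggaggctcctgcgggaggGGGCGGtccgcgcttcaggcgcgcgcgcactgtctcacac
Col24a1: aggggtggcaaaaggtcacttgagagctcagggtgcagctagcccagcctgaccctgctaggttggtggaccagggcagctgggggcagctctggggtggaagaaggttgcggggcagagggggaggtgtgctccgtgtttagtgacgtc
P4ha3: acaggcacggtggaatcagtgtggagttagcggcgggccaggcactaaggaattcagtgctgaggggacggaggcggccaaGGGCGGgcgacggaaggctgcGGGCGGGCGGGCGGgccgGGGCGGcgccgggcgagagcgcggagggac
Col17a1: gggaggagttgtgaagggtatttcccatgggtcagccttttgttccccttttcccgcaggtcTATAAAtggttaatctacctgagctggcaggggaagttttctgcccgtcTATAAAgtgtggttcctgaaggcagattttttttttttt
Col23a1: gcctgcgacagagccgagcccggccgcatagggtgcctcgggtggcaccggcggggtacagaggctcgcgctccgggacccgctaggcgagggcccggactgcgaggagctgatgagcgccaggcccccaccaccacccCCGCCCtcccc
Col10a1: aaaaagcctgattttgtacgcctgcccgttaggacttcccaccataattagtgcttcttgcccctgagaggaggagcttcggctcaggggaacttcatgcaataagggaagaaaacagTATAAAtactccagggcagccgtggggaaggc

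Of these windows, P4ha3 held 5 GC boxes counted with their overlaps, Col25a1 2 and Col23a1 1, and Col17a1 held 2 TATA boxes and Col10a1 1. Within 250 bases before the start, the TATA box occurred in 7 of the 40 members against 14.3% of 27025 genes, the CCAAT box in 13 against 37.5% and the GC box in 27 against 35.4%. The 27025 genes are all those with an entry, whether expressed in these lungs or not, so these shares do not set the members apart from other expressed genes. By call, the TATA box was in 1 of 11 risen, 4 of 14 fallen and 1 of 11 uncalled members with an entry. The CCAAT box was in 4, 3 and 5 of them, and the GC box in 8, 9 and 7. A match is a run of letters and not a site in use.

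Col15a1 and Col18a1 are basement membrane collagens that release endostatin-like fragments. Col15a1, on chromosome 4 from 47208161 to 47313167 on the plus strand, was 10.9, 13.7, 17.7, 14.3 and 14.5 FPKM in IncPBF lungs and 5.88, 6.13, 9.32, 9.21 and 5.32 FPKM in sham lungs. The lowest IncPBF lung was above the highest sham lung, and it rose by 1.00 (SE 0.17, adjusted p = 0.00154). Col18a1 was 13.9 to 16.1 FPKM in IncPBF lungs and 14.01 to 19.2 FPKM in sham lungs, a log2 fold change of -0.07 (adjusted p = 0.612) that turned to 0.01 after an equal total per lung and with limma-voom.

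The catalytic subunits of prolyl 4-hydroxylase, which make the hydroxyproline that steadies the helix, did not move together. P4ha3, on chromosome 7 from 100285520 to 100319699 on the plus strand, was 22.8, 24.8, 24.7, 25.8 and 21.3 FPKM in IncPBF lungs and 4.48, 7.70, 14.9, 9.38 and 9.16 FPKM in sham lungs. Its IncPBF lungs lay close to each other and its sham lungs spread widely, with sham lung 3 highest, but the groups did not overlap. The log2 fold change was 1.48 (SE 0.24, adjusted p = 0.00103) and the mean 2.62-fold higher.

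P4ha1, at 20.3 ± 1.07 FPKM with IncPBF and 22.9 ± 3.16 FPKM with sham surgery, was not called (log2 fold change -0.16, adjusted p = 0.201). P4ha2, at 3.64 ± 0.402 and 4.36 ± 0.477 FPKM, was not called either (-0.25, adjusted p = 0.0577). P4ha1 was called lower without sham lung 3 (adjusted p = 0.0201), and P4ha2 without IncPBF lung 4 or sham lung 4 (at the lowest 0.0294). Quantile normalization also brought P4ha2 past the threshold. P4ha3 made up the difference in the summed FPKM of the 3 subunits, which was 45.7 to 50.9 in IncPBF lungs and 34.6 to 37.6 in sham lungs.

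P3h1 and Crtap form a complex that 3-hydroxylates a proline of type I collagen, and both rose. P3h1 rose by 0.33 (SE 0.06, adjusted p = 0.00154), from 19.9 ± 1.46 to 25.0 ± 1.08 FPKM, and Crtap by 0.37 (SE 0.11, adjusted p = 0.0253), from 38.2 ± 6.62 to 48.7 ± 2.34 FPKM. Neither overlapped between the groups. The call on Crtap ended without IncPBF lung 3, IncPBF lung 4 or sham lung 4, at an adjusted p of up to 0.0579, and without a filter (0.0515).

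Of the lysyl hydroxylases, which prepare cross-links, Plod1 fell by 0.33 (SE 0.07, adjusted p = 0.00520), from 15.8 ± 1.71 to 12.5 ± 0.490 FPKM without overlap. Plod2 was 15.3 to 19.9 FPKM against 15.0 to 22.8 FPKM (log2 fold change -0.11, adjusted p = 0.463) and Plod3 17.7 to 21.5 FPKM against 17.6 to 23.9 FPKM (-0.15, adjusted p = 0.202). Without sham lung 4, Plod3 was called lower at an adjusted p of 0.0463. Plod3 shares 11.7% of its exon bases with Znhit1 on the opposite strand, and the sources used here do not state whether counting used the strand.

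Serpinh1, the collagen chaperone and the most abundant processing gene of the list, was 389, 390.5, 415, 424 and 393 FPKM in IncPBF lungs and 282, 389.9, 330.2, 330.3 and 373 FPKM in sham lungs. The ranges touched at sham lung 2, and the log2 fold change of 0.25 (SE 0.09) just missed the threshold (adjusted p = 0.0503). Without sham lung 2 or sham lung 5 it passed, at the lowest with 0.0247. An equal total per lung, quantile normalization, limma-voom and the stricter filter also brought it past the threshold.

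The C-proteinase and its enhancers went apart. Bmp1, which also cleaves lysyl oxidase and other matrix precursors, was 25.7, 25.5, 32.1, 26.2 and 24.0 FPKM in IncPBF lungs and 16.1, 17.4, 21.4, 18.2 and 21.0 FPKM in sham lungs. It rose by 0.50 (SE 0.10, adjusted p = 0.00267), and the groups did not overlap.

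Pcolce2, an enhancer on chromosome 9 from 95637601 to 95698096 on the plus strand, was 37.3, 36.7, 29.6, 33.9 and 37.2 FPKM in IncPBF lungs and 64.2, 77.9, 51.8, 61.1 and 61.6 FPKM in sham lungs. The groups were far apart, and Pcolce2 fell by 0.85 (SE 0.10, adjusted p = 0.000161). Pcolce fell by 0.23 (SE 0.08, adjusted p = 0.0398), from 44.2 ± 4.59 to 37.6 ± 2.68 FPKM, with overlap. The call on Pcolce ended without any one of IncPBF lungs 1, 2, 3 or 5 or sham lungs 2 or 5, at an adjusted p of up to 0.0925. It also ended after an equal total per lung (0.128), with limma-voom (0.116), without a trend (0.0571) and without a filter (0.0746).

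The 6 members under the filter were compared by an exact permutation test of the means, two-sided and not adjusted over the 6, whose smallest p with 5 lungs against 5 is 0.00794. Cartilage chains were low in both groups. Col2a1 was 0.133 ± 0.0261 FPKM with IncPBF and 0.154 ± 0.0516 FPKM with sham surgery (exact p = 0.476). Col11a1 was 0.113 ± 0.0363 and 0.0818 ± 0.0302 FPKM (exact p = 0.190), and Col11a2 was 0.388 ± 0.0829 and 0.440 ± 0.0413 FPKM (exact p = 0.238).

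Col26a1, a little studied collagen of ovary and testis, was 0.269 ± 0.0686 FPKM with IncPBF and 0.144 ± 0.0532 FPKM with sham surgery (exact permutation p = 0.0238), on 14 to 53 fragments per lung. Col6a6 was 0.133 ± 0.0489 and 0.0642 ± 0.0379 FPKM (exact permutation p = 0.0476) on 2 to 33 fragments. Without IncPBF lung 2, 3 or 4 or sham lung 1, 4 or 5 its exact p was up to 0.0952. Col28a1 was 0.170 ± 0.0584 and 0.101 ± 0.0433 FPKM (exact permutation p = 0.0714) on 4 to 22 fragments, and the exact p was 0.0317 without IncPBF lung 1 and 0.0476 without sham lung 4. The groups of all 6 overlapped.

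Other genes of collagen biology, listed outside the members, numbered 35, of which 28 passed the filter. Of these 28, 6 rose (against 16.1% of all genes tested), 6 fell (against 16.2%) and 16 were not called. Their median log2 fold change was 0.00. Risen genes included Fkbp10, a chaperone that works with Serpinh1 (0.62, adjusted p = 0.000548), Sec23a, a coat protein of vesicles that carry procollagen (0.34, adjusted p = 0.000675), the collagen receptors Ddr2 and Mrc2, P3h3 and Creb3l1. Fallen genes were Tmem38b, a channel of the endoplasmic reticulum needed for collagen synthesis in bone (-0.83, adjusted p = 2.76e-05), Colgalt2, a collagen galactosyltransferase (-0.61, adjusted p = 0.00248), the N-proteinases Adamts3 and Adamts14, Tll1 and Mia2. The more abundant N-proteinase Adamts2, with means of 42.8 FPKM in IncPBF lungs and 45.5 FPKM in sham lungs, was not called (-0.08, adjusted p = 0.506). P4hb, the partner subunit of the P4ha chains, was 257.8 ± 11.9 and 232 ± 10.7 FPKM and was not called (0.15, adjusted p = 0.0629). With Xist as a covariate, 1 of the 12 called genes, Tmem38b, stayed past the threshold (adjusted p = 0.0128), and the adjusted p was 0.0726 for Fkbp10, 0.0711 for Sec23a and 0.693 for Creb3l1.

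Smooth muscle and myofibroblast markers moved with the risen members. Acta2, Myh11, Actg2 and Des rose, Tagln and Cnn1 were not called, and the summed FPKM of the 6 was 313 to 608 in IncPBF lungs and 112 to 246 in sham lungs. With Xist as a covariate the 4 that rose all lost their call, and the log2 fold change went from 1.57 to 1.01 for Acta2 (adjusted p = 0.162), from 0.73 to 0.39 for Myh11 (0.449), from 1.65 to 0.89 for Actg2 (0.319) and from 0.74 to 0.38 for Des (0.277). Of 6 fibroblast markers, Dpt rose, Pdgfra fell by 1.36 and 4 were not called, with sums of 430.1 to 496 and 386 to 446. Mesothelial markers fell in 3 of 3 tested, with sums of 19.5 to 43.4 and 38.5 to 98.0. None of 5 ciliated-cell markers was called, with sums of 15.6 to 33.5 and, through a low sham lung 5, 1.61 to 32.6. None of 3 cardiomyocyte markers tested was called, with sums of 0.562 to 16.4 and 0.802 to 3.43. Of the osteoblast markers, Ibsp rose and Bglap and Sp7 had at most 7 fragments in any lung. With the covariate Pdgfra stayed past the threshold (adjusted p = 0.0350), and Dpt, Ibsp and the 3 mesothelial markers did not. The part of these cells in the collagen changes was not tested.

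With log2(Xist FPKM + 0.1) in the model, all 31 called members kept their direction, and 7 remained past the threshold. The covariate shares most of its variation with the groups, and over all genes it left 2.13% higher and 2.68% lower. Xist was high in every IncPBF lung but lung 1, so the group term of this fit rests largely on lung 1 against the sham lungs. Higher with Xist in the model were 2 members, Col25a1 (log2 fold change 2.53, adjusted p = 0.00592) and Col24a1 (1.81, adjusted p = 0.0349). Lower were 5 members, Col8a2 (-0.80, adjusted p = 0.0237), Col17a1 (-1.73, adjusted p = 0.0312), Col23a1 (-0.83, adjusted p = 0.0404), Col6a1 (-0.47, adjusted p = 0.0433) and Pcolce2 (-0.72, adjusted p = 0.0464).

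The IncPBF lung without Xist, lung 1, gives a comparison among lungs alike in this respect. It lay above all sham lungs in 15 of the 16 risen members, against 91.6% of all risen genes, and Col1a1 was the exception. It lay below all sham lungs in 15 of the 15 fallen members, against 91.9% of all fallen genes. In 8 of the 31 called members lung 1 was the IncPBF lung nearest to the sham mean. Col12a1 was 8.18 FPKM in lung 1 and at least 10.5 FPKM in the other IncPBF lungs, and Col15a1 was 10.9 FPKM against at least 13.7 FPKM, and their log2 fold changes were 0.72 and 0.60 with the covariate. For the X-linked Col4a5 and Col4a6 the changes with the covariate were -0.79 and -0.53, against -0.70 and -0.59 for the autosomal Col4a3 and Col4a4. Lung 1 and the 5 sham lungs were also part of the fit that called the 31 members, so a kept direction is no separate check. A fit of lung 1 against the 5 sham lungs, chosen after the data were seen, kept the direction of all 31 members. This fit nearly repeated the one with the covariate, with log2 fold changes of 0.70 against 0.72 for Col12a1 and 2.56 against 2.53 for Col25a1. It called 0 of the 43 members by limma at the adjusted threshold, against 0.273% of all genes higher and 0.728% lower. At an unadjusted p under 0.05, 9 members were higher and 12 lower, against 7.67% and 8.89% of all genes.

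**Figure D5:**
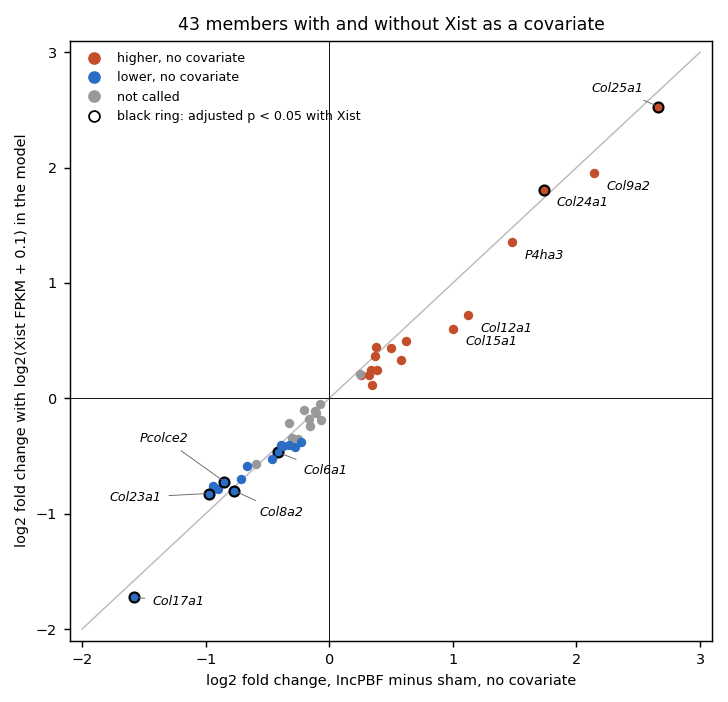
Log2 fold change of the 43 tested members without a covariate (horizontal) and with log2(Xist FPKM + 0.1) in the model (vertical), with a grey line where both are equal. Black rings mark the 7 members past the threshold with the covariate, of which Col25a1 and Col17a1 lie farthest from 0.

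Most tested members varied more among the sham lungs than among the IncPBF lungs. The SD of the log2 values was larger in the sham group for 32 of the 43 tested members, with a median of 0.197 against 0.136. No share over all genes tested was computed for the counts given here, so they are not shown to be particular to the members. Sham lung 3 was the sham lung nearest to the IncPBF mean for 17 of the 31 called members, and IncPBF lung 5 the IncPBF lung nearest to the sham mean for 11. P4ha3 had the widest sham spread, with an SD of 0.617 on the log2 scale against 0.110 in the IncPBF group.

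By summed FPKM, the fibril-forming members were 955 ± 83.7 with IncPBF and 853 ± 65.9 with sham surgery. The type IV members were 850.1 ± 72.8 and 1124 ± 207, the beaded-filament members 279 ± 13.3 and 355 ± 31.7, and the fibril-associated members 46.9 ± 2.63 and 29.5 ± 3.41. The sum over all 49 members, 2869 ± 96.6 and 3056 ± 308, overlapped between the groups. No lung of the fibril-associated or beaded-filament sums lay within the range of the other group.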

How the data were processed

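Total RNA of P14 lungs (IncPBF n = 5, sham n = 5) was isolated with Trizol per the labels, or a column kit per the methods, and NEBNext libraries were sequenced on a NovaSeq instrument. The authors deposited FPKM per gene with the gene length in bases. The submitters' processing notes name Bowtie 0.12.2 and the builds GRCm38, mm10 and hg38. The role of each, the counting software and the use of strand are not given in the sources used here. All 49 members had the coordinates of GENCODE M21 on GRCm38. The IncPBF columns are abbreviated differently from the sample titles and were assigned by group only, so their numbers are names.

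The fragments on each gene were recovered as whole multiples of a step per lung (100% of values within 0.1). Genes with a mean of at least 0.5 FPKM were tested on log2(FPKM + 0.1), which understates changes of low genes, with limma 3.58.1 (lmFit, eBayes with a trend) in R 4.3.3, with all 10 lungs, no covariate and Benjamini-Hochberg adjustment over 15388 genes. Members below the filter were compared by exact permutation over 252 assignments. Summed FPKM and chain ratios are descriptions. All 49 members are named. Values in every lung are given for members with an adjusted p under 0.05, a log2 fold change of at least 0.5 in size and a mean of at least 1 FPKM, for the type IV chains and for the 5 members of highest mean FPKM. Gly-X-Y runs of at least 4 triplets were counted in the longest open reading frame of GENCODE M21 transcripts. Promoters came from RefSeq. Python 3.11.15, pandas 2.3.3 and matplotlib 3.10.9 were used. The members and lists were chosen with earlier results of these data known.

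Alternatives were the pseudocount (1 or 0.01), the filter (mean of at least 1 FPKM, or none), the scaling (equal total, median centring, quantile), no trend, limma-voom on recovered fragments, the replicate number as a block, Xist as a covariate and each lung left out. Only lungs without Xist RNA were compared after the data were seen. The test was tested on simulated data for this comparison with 15400 genes. It recovered 88.2% of genes changed by 1 and 17.8% of those changed by 0.5 on the log2 scale, with 10 false calls among 111. The lungs themselves gave 2480 higher and 2490 lower calls. The share recovered, or falsely called, at such numbers of calls was not tested. No gene set was tested, and litter and date of surgery are not in the labels.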

Additional observations from a re-analysis of the deposited data

Results flagged for a closer look

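Groups of 5 lungs were searched for a lung far from the other 4 by Dixon's criterion in all 49 members. Of 98 groups tested, 4 had such a lung, and chance gives about 1 in 20. Col6a3 was 49.8 FPKM in IncPBF lung 4 and 54.6 to 56.2 FPKM in the other IncPBF lungs. Col14a1 was 11.2 FPKM in IncPBF lung 3 and 14.02 to 14.8 FPKM in the others of its group, and this lung made the groups overlap. Bmp1 was 32.1 FPKM in IncPBF lung 3 and 24.0 to 26.2 FPKM in the others. Col8a2 was 4.74 FPKM in sham lung 2 and 3.59 to 3.87 FPKM in the other sham lungs.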

How the results depend on the processing

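Of the 31 called members, 25 stayed past the adjusted threshold in every alternative in which they were tested, except the Xist covariate and the lungs without Xist. Of these, Col9a2 and Col17a1 were not tested at a mean of at least 1 FPKM. The other 6 lost their call without a filter. None of the 31 changed sign in any of the 22 alternatives, all of which reuse lungs that gave the calls. The counts of 16 higher and 15 lower members were 14 to 17 and 11 to 17 when each lung was left out in turn. Without a filter, 14 rose and 11 fell among 49 members. An equal total per lung gave 17 and 13 and raised the median of all genes from 0.01 to 0.09. Limma-voom gave 17 and 14, and over all genes 3644 higher and 1870 lower, against 2480 and 2490. With the Xist covariate 2 rose and 5 fell, and with the lungs without Xist alone 0 and 0, where 1 IncPBF lung was assumed to vary like the sham lungs.

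The signs of 2 uncalled members turned, Col6a3 (0.00702 after an equal total per lung and 0.00683 with limma-voom, on the log2 scale) and Col18a1 (0.0142 in both). Below the filter, with lungs left out in turn, the difference of IncPBF minus sham was 0.0495 to 0.0793 FPKM for Col6a6 and 0.0547 to 0.0907 FPKM for Col28a1. The replicate numbers do not pair the lungs. Same-numbered lungs correlated by -0.067 to 0.085 in their deviations from the group means, 2 of 10 lungs correlated best with their own number, and with the replicate block 16 members rose and 15 fell. The cause of the changes with the Xist covariate was not tested. Depth limits members such as Col9a2, which had as few as 3 fragments in a sham lung.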
